A study of Mus musculus with 36 samples.

Results

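The genes described here are the 5 mouse interferon-induced transmembrane (IFITM, or Fragilis) genes of chromosome 7, *Ifitm1*, *Ifitm2*, *Ifitm3*, *Ifitm5* and *Ifitm6*. They were chosen by name, and all 5 were listed among the 50600 genes measured in sorted Day 3 cells and among the 29267 genes measured in the other libraries. Their RNA was followed in 11 bulk RNA-seq libraries from a study of BMP4 induced primed to naïve transition (BiPNT), in which epiblast stem cells (EpiSCs), the cultured counterpart of the post-implantation epiblast, are taken towards the naïve state. The first experiment compared Day 3 cells sorted as *c-Kit*+ (2 libraries) and *c-Kit*- (2 libraries). Both had spent 3 days in Stage 1 medium, which held BMP4, the EZH2 inhibitor EPZ6438 and a DOT1L inhibitor (DOT1Li) on a base of Vitamin C, bFGF, LiCl, LIF and CHIR99021. The second compared Day 6 BV+SC+ cells (2 libraries) with EpiSCs (3 libraries). BV+SC+ cells carry and express reporters that follow *Prdm1* (Blimp1-mVenus) and *Dppa3* (Stella-ECFP). They were induced with BMP4, EPZ6438 and the DOT1L inhibitor EPZ5676 before a second medium. The protocol text names 2i for this medium, whereas the labels name 2iJi for replicate 1 and GK15 for replicate 2 of the BV+SC+ cells. This disagreement was not resolved, and medium and replicate cannot be told apart. The labels do not say whether the EpiSCs compared with the BV+SC+ cells carried the reporters. The third compared Day 3 cells with and without the DOT1L inhibitor SGC0946, with 1 library each, read from the titles. The paper describes both as Day 3 BiPNT cells, and its Stage 1 medium holds BMP4 and EPZ6438. Below, "with DOT1Li" and "without DOT1Li" mean these 2 libraries. The *c-Kit*+, *c-Kit*- and BV+SC+ cells had also received a DOT1L inhibitor. No label says that replicates came from separate cultures, so p-values measure only the spread between these libraries.

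IFITM proteins are small membrane proteins that sit at the cell surface and in endosomes and hinder the fusion of enveloped viruses with the cell. Interferons switch on several of them in most tissues through STAT and IRF factors. In the mouse embryo *Ifitm3* (Fragilis) and *Ifitm1* are also known as genes of nascent primordial germ cells (PGCs), while *Ifitm5* is known for its role in bone and *Ifitm6* for expression in myeloid cells.

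The 5 genes lie within 69.0 kb of chromosome 7 (GRCm38, GENCODE M21). *Ifitm5* spans chr7:140948958-140950291, *Ifitm2* chr7:140954837-140955987, *Ifitm1* chr7:140967221-140969825, *Ifitm3* chr7:141009586-141010770 and *Ifitm6* chr7:141015699-141017924. *Ifitm1* is read from the plus strand and the other members from the minus strand. The promoter windows of the 3 members with appreciable RNA are shown because these neighbours moved unequally in every comparison. Each runs from 250 bases before to 50 bases after the RefSeq gene start on GRCm38.p6, is written 5′ to 3′ on the strand of the gene, and has in capitals each match to the interferon-stimulated response element (ISRE) letters GAAANNGAAA. The windows are chr7:140967826-140968125 (plus strand), chr7:140955912-140956211 (minus strand) and chr7:141010695-141010994 (minus strand), in this order.
Ifitm1: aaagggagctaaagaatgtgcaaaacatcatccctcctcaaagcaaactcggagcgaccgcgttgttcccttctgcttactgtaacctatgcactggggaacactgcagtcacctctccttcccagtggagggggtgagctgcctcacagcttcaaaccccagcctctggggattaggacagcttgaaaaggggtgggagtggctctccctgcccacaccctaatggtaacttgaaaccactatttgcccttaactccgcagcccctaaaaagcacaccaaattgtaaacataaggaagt
Ifitm2: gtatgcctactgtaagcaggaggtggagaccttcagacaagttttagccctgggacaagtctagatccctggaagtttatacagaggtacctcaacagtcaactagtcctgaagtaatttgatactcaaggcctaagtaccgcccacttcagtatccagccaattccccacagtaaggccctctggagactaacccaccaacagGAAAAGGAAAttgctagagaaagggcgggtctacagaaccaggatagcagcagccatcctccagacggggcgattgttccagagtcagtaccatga
Ifitm3: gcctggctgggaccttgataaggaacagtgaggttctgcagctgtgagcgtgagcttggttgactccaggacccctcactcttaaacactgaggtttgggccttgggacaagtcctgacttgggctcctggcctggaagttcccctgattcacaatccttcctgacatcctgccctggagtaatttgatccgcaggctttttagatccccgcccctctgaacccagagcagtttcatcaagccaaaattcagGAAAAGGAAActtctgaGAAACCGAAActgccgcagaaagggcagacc

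*Ifitm3* held 2 matches to the ISRE letters, which began at bases 3 and 20 counted from the gene start as base 1, inside the transcribed part of the window. *Ifitm2* held 1 match, 46 bases before its start, and the match was the same 10 letters (GAAAAGGAAA) as the first one of *Ifitm3*. The *Ifitm1*, *Ifitm5* and *Ifitm6* windows held none of these letters. The windows of *Ifitm1* and *Ifitm6*, which have 3 annotated transcripts each, do not reach the GENCODE gene starts given above, and those starts were not searched. Both strands were searched, and 3.44% of 32851 RefSeq promoter windows of this length held at least 1 match, against 14 of the 31 interferon target genes that had a window. The STAT-type letters TTCNNNGAA, found in 8.3% of all windows, occurred once in *Ifitm3*, where they overlapped the second ISRE match, and once in *Ifitm6*. The SMAD letters GGCGCC (11.9% of windows) and the octamer ATGCAAAT (1.74%) occurred in no member's window. These are matches of letters, with no measurement of binding.

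Depth was 1726038 to 1841442 expected counts in the sorted libraries, 2444211 to 3070115 in EpiSCs, 14778809 to 18099059 in BV+SC+ cells, and 4577685 without and 4776143 with DOT1Li. Cell identity was checked with marker lists. Summed trophoblast markers (8 genes) stood at 4335 to 4861 TPM (transcripts scaled to length and library size) in *c-Kit*- cells and 666 to 913 in *c-Kit*+ cells, while summed PGC and reporter genes (8 genes) stood at 354 to 366 and 796 to 883. In the second experiment the PGC and reporter genes summed to 18.6 to 25.7 TPM in EpiSCs and 2122 to 2137 in BV+SC+ cells. Cells were sorted on the protein of *Kit* in the first experiment and chosen by reporters of *Prdm1* and *Dppa3* in the second. These genes are in the list, so its rise was set in part by the sorting and is no independent check. Trophoblast markers summed to 21.1 to 33.1 TPM in EpiSCs and 41.4 to 126 in BV+SC+ cells, and primed epiblast markers to 3066 to 3134 and 1876 to 2017. Summed blood markers reached at most 3.09 TPM and summed endothelial markers at most 15.9 TPM in any library.

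Transcripts of the family came almost wholly from *Ifitm1*, *Ifitm2* and *Ifitm3*. Levels below are TPM, a unit corrected for transcript length, and were set side by side only as a description where they come from the 2 differently annotated sets of tables. *Ifitm2* was high everywhere, from 664 TPM in a *c-Kit*- library to 1234 TPM in a BV+SC+ library. *Ifitm1* ranged from 0 in 2 EpiSC libraries to 2133 TPM in a BV+SC+ library. *Ifitm3* ranged from 25.7 TPM in EpiSCs to 988 TPM in BV+SC+ cells. *Ifitm5* was listed at 0 in the 4 sorted libraries, and its highest value elsewhere, 6.10 TPM in an EpiSC library, rested on 5 counts. *Ifitm6* had 1 count in 1 library, with DOT1Li, and 0 in the other 10. Neither reached the minimum count for a test.

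**Figure D1:**
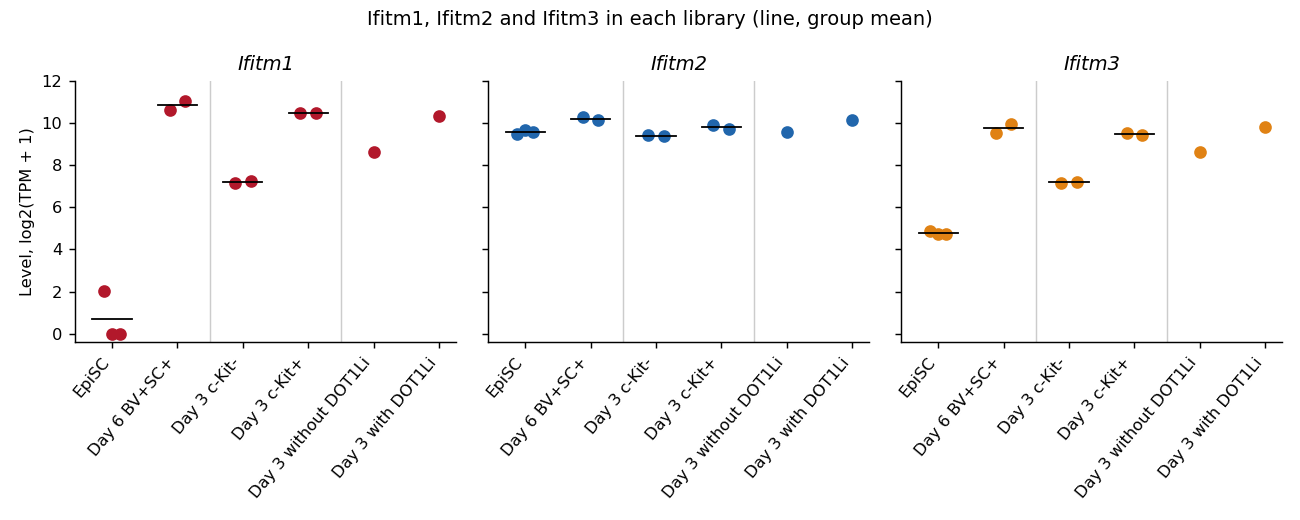
Level of *Ifitm1*, *Ifitm2* and *Ifitm3*, as log2(TPM + 1), in each library (points) of the 6 conditions, with the group mean as a line where a group has 2 or 3 libraries. *Ifitm2* stays in a narrow band, whereas *Ifitm1* and *Ifitm3* are lowest in EpiSCs and high in *c-Kit*+ and BV+SC+ cells and with SGC0946.

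*Ifitm1* and *Ifitm3* had nearly the same order of conditions. From high to low it was BV+SC+, *c-Kit*+, with DOT1Li, without DOT1Li, *c-Kit*- and EpiSC for *Ifitm1*. For *Ifitm3* the single library with DOT1Li (903 TPM) lay above the BV+SC+ mean (868 ± 171 TPM, SD, n = 2) but between its 2 libraries, and the rest of the order was the same. *Ifitm2* had a different order, with BV+SC+ cells (1132 and 1234 TPM) and, within their range, the library with DOT1Li (1143 TPM) at the top and *c-Kit*- cells at the bottom. For *Ifitm2*, the library without DOT1Li (776 TPM) fell within the range of the EpiSC libraries (719 to 812 TPM), so these neighbours did not differ beyond their spread.

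The make-up of the family changed with its sum. In EpiSCs the 5 genes summed to 756 to 839 TPM, and *Ifitm2* supplied 95 to 96.8% of that sum. In *c-Kit*- cells the sum was 965 to 977 TPM and the *Ifitm2* share was 68.8 to 70.8%. In *c-Kit*+ cells the sum was 2947 to 3122 TPM, of which *Ifitm1* supplied 45.9 to 48.1% and *Ifitm2* 28.4 to 30.7%. BV+SC+ cells had the highest sums, 3571 and 4255 TPM, with 44.5 and 50.1% from *Ifitm1*. *Ifitm1* was thus the leading member in the *c-Kit*+ and BV+SC+ libraries and the library with SGC0946, and *Ifitm2* in the other 6. Among those led by *Ifitm2* were the *c-Kit*- cells, which had also received a DOT1L inhibitor.

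**Figure D2:**
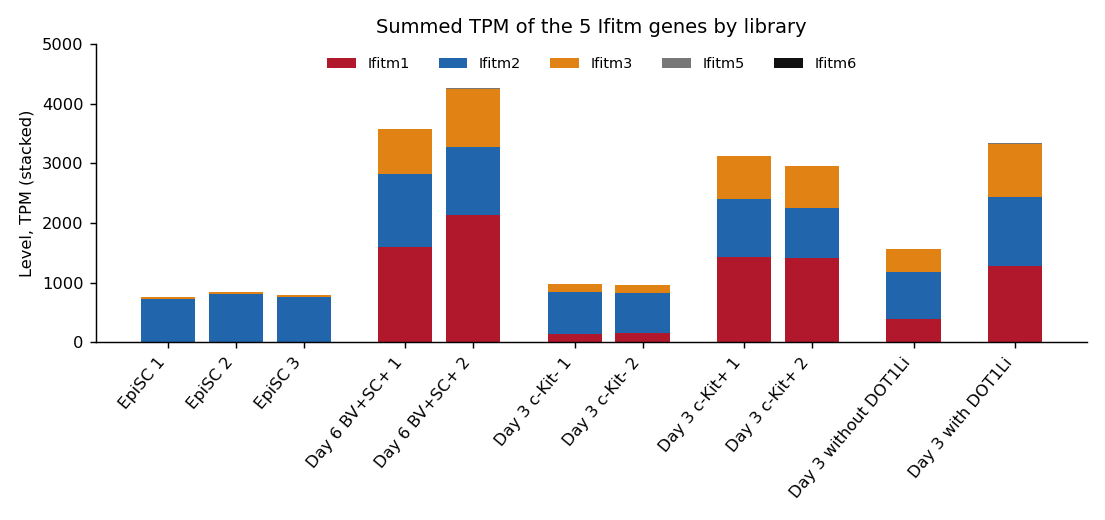
Summed TPM of the 5 *Ifitm* genes in each of the 11 libraries, stacked by gene. *Ifitm2* (blue) fills nearly the whole bar in EpiSCs, while *Ifitm1* (red) is the largest part in *c-Kit*+ and BV+SC+ cells and with SGC0946. *Ifitm5* and *Ifitm6* are too low to be seen.

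The first comparison asks how *c-Kit*+ cells, in which the study followed a PGC-like state, differ from the *c-Kit*- cells sorted from the same culture stage. *Ifitm1* and *Ifitm3* were both higher in *c-Kit*+ cells, and *Ifitm1* by more. *Ifitm1* stood at 144 and 153 TPM in *c-Kit*- cells and at 1433 and 1417 TPM in *c-Kit*+ cells. *Ifitm3*, which in *c-Kit*- cells was as abundant as *Ifitm1*, stood at 141 and 148 TPM there and at 729 and 693 TPM in *c-Kit*+ cells. The 2 groups lay far apart for both genes, with replicates close together. In edgeR's quasi-likelihood test, with genes called at a Benjamini-Hochberg adjusted p under 0.05 and a fold change over 2, the log2 fold change of *Ifitm1* was 3.29 (SE 0.12, adjusted p = 5.82e-07), which is 9.79-fold. That of *Ifitm3* was 2.44 (SE 0.13, adjusted p = 1.74e-06), or 5.42-fold.

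*Ifitm2* moved little. It stood at 692 and 664 TPM in *c-Kit*- cells and at 960 and 836 TPM in *c-Kit*+ cells. The groups did not overlap, as for 37.4% of all genes tested on the higher side, and the log2 fold change was 0.55 (SE 0.11, edgeR adjusted p = 0.00346). The 1.46-fold difference was under the fold limit, so *Ifitm2* was not called. Of the 3 members tested, 2 were thus called, both higher, beside 9.98% of the 11018 genes tested called higher. The median log2 fold change of the 3 was 2.44 and that of all genes 0.03. Trophoblast markers were lower in *c-Kit*+ cells for 5 of 7 tested and the PGC and reporter genes higher for 5 of 6, *Kit* itself among them since the sort used its protein. Summed primed epiblast markers (5 genes) stood at 116 to 118 TPM in *c-Kit*- and 1497 to 1578 TPM in *c-Kit*+ cells, with *Pou5f1*, *Sox2* and *Otx2* called higher of 4 tested. *Dnmt3b* was not called (log2 fold change 0.09) and *Fgf5* was not tested. *Pou5f1* made up much of this sum (mean 663 TPM over the 4 libraries), and the paper lists it and *Sox2* among pluripotency genes of *c-Kit*+ cells. The sum is therefore no measure of a primed state. *Sox2*, *Otx2*, *Dppa3* and *Nanos3* entered the test only through *c-Kit*+ counts. Summed primitive streak and mesoderm markers (6 genes) stood at 6.17 to 7.13 and 172 to 205 TPM, and fibroblast markers (6 genes) at 98.6 to 121 and 34.3 to 36.2 TPM. The part of these differences in cell make-up in the *Ifitm* values was not tested, and in bulk samples fewer cells of a type and less RNA per cell cannot be told apart.

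In the second comparison, of BV+SC+ cells with the EpiSCs in which reprogramming starts, *Ifitm1* went from nearly no reads to the most abundant member of the family. EpiSCs held 3, 0 and 0 counts of *Ifitm1* (3.09, 0 and 0 TPM), and BV+SC+ cells held 5622 and 9265 counts (1590 and 2133 TPM). The ratio of summed counts, scaled to library totals, was 1281-fold with an exact 95% interval of 438 to 6210 that covers counting error only. The edgeR quasi-likelihood test called the gene higher (adjusted p = 4.33e-06). The 3 EpiSC counts all came from replicate 1, and without that library *Ifitm1* was at least 399-fold higher, taking 3 counts in each EpiSC library as the floor.

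*Ifitm3* was detected in every EpiSC library, at 28.6, 25.7 and 25.8 TPM, and stood at 747 and 988 TPM in BV+SC+ cells. Its log2 fold change was 5.06 (SE 0.20, edgeR adjusted p = 3.19e-06), or 33.4-fold. *Ifitm2*, already abundant in EpiSCs at 719, 812 and 758 TPM, stood at 1234 and 1132 TPM in BV+SC+ cells. The groups again did not overlap, as for 38.1% of genes on the higher side, with a log2 fold change of 0.67 (SE 0.10, edgeR adjusted p = 0.00114) that is 1.59-fold and under the fold limit. So 2 of 3 members tested were called, both higher, beside 16.8% of the 11792 genes tested called higher. *Ifitm1* entered this test only through its BV+SC+ counts, and under a floor of 10 counts for each library it was not tested and 1 member, *Ifitm3*, was called. *Ifitm5* held 5, 1 and 1 counts in EpiSCs and 3 and 7 in the far deeper BV+SC+ libraries, too few for a comparison.

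The third comparison, of Day 3 cells with and without SGC0946, has no replicate check. *Ifitm1* stood at 394 TPM (431 counts) without and 1285 TPM (1425 counts) with DOT1Li. The ratio of counts scaled to library totals was 3.17-fold, with an exact 95% interval of 2.84 to 3.54 for counting error only. *Ifitm3* stood at 396 TPM without and 903 TPM with DOT1Li, a count ratio of 2.32-fold (2.08 to 2.59). *Ifitm2* stood at 776 and 1143 TPM, a count ratio of 0.58 on the log2 scale (0.45 to 0.71). On the log2(TPM + 1) scale the 3 ratios were 1.70, 1.19 and 0.56 for *Ifitm1*, *Ifitm3* and *Ifitm2*, beside a median of 0.01 over 14038 genes. *Ifitm1* and *Ifitm3* were past the 2-fold limit on the higher side, where 6.33% of all genes were. *Ifitm5* had 3 counts in each library and *Ifitm6* 0 counts without and 1 with DOT1Li, so no ratio is given. Summed PGC and reporter genes stood at 258 TPM without and 493 TPM with DOT1Li and summed trophoblast markers at 1487 and 1152 TPM. Primed epiblast markers summed to 165 and 692 TPM, with *Pou5f1* past the limit, and primitive streak and mesoderm markers to 11.3 and 25.1 TPM. In the primed list the log2 ratios were 3.01 for *Pou5f1*, 0.80 for *Sox2* and 0.05 for *Dnmt3b*, and *Otx2* and *Fgf5* were not compared. *Gata4* and *Gata6* of the endoderm list were past the limit on the lower side. The part of these lists in the result was not tested.

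**Figure D3:**
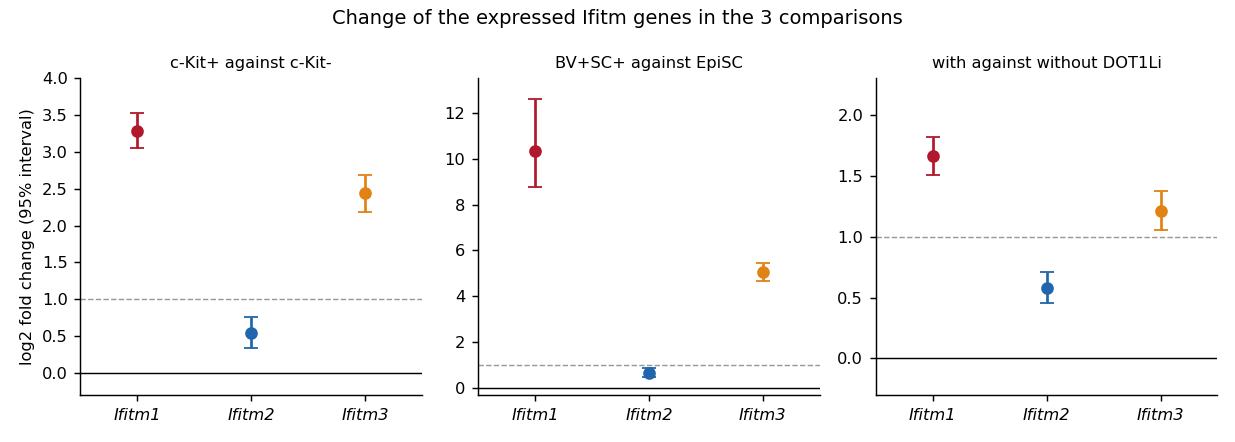
Log2 fold change of *Ifitm1*, *Ifitm2* and *Ifitm3* in the 3 comparisons. Bars are 95% intervals. For *Ifitm1* in BV+SC+ cells and in the DOT1Li panel they cover counting error alone. The other bars are normal intervals from a standard error worked back from the edgeR F statistic, and can be too narrow with so few libraries. The dashed line marks 2-fold, and each panel has its own y axis. *Ifitm1* lies highest, *Ifitm3* between and *Ifitm2* below the 2-fold line in each panel.

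The unequal change shows in the ratios between members inside a library. *Ifitm1* and *Ifitm3* were nearly equal in *c-Kit*- cells (TPM ratio 1.02 and 1.03) and without DOT1Li (0.997). The ratio was 1.97 and 2.04 in *c-Kit*+ cells, 2.13 and 2.16 in BV+SC+ cells and 1.42 with DOT1Li. In log2(TPM + 1), the difference of *Ifitm1* minus *Ifitm3* was 0.04 ± 0.01 (SD, n = 2) in *c-Kit*- and 1.00 ± 0.04 (SD, n = 2) in *c-Kit*+ cells. The exact two-sided permutation test gave p = 0.333, the smallest that 2 against 2 libraries allows here. For *Ifitm2* minus *Ifitm3* the difference was 2.22 ± 0.09 in *c-Kit*- and 0.33 ± 0.09 in *c-Kit*+ cells, again with p = 0.333 in the exact permutation test. Between EpiSCs and BV+SC+ cells the *Ifitm2* minus *Ifitm3* difference was 4.79 ± 0.17 (SD, n = 3) and 0.46 ± 0.37 (SD, n = 2), and that of *Ifitm1* minus *Ifitm3* was -4.11 ± 1.09 and 1.10 ± 0.01. Both exact permutation tests gave p = 0.2, the smallest possible, and all 4 tests had p = 0.333 after Benjamini-Hochberg adjustment, so this design could not reach 0.05.

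Over the 7 EpiSC, BV+SC+ and DOT1Li libraries, *Ifitm3* ranked 3rd of 10597 genes in likeness to *Ifitm1* (Pearson r 0.99 of log2(TPM + 1)), after *Gigyf1* and the potassium channel gene *Kcnc4* and before *Kank1* and *Ssbp4*. This ranking depends on the pseudocount, since none of these 5 genes stayed among the 5 most like *Ifitm1* with a pseudocount of 0.1. Among the genes most like *Ifitm3* were *Gigyf1*, *Kank1*, *Kit* and *Tfap2c*, the last of which encodes a transcription factor of PGC specification. Those most like *Ifitm2* were *Zdhhc18*, *Rell1*, *St6galnac4*, *Nanos3* (an RNA-binding protein of germ cells) and *Cnot9*. *Ifitm2* correlated less with *Ifitm1* (r 0.81) and *Ifitm3* (r 0.84). The libraries fall into 4 conditions and share annotation and library type, so these values describe the profiles only. In the sorted cells, which did not enter the ranking, *Kit* (log2 fold change 5.28) and *Nanos3* (at least 15.5-fold) were called higher in *c-Kit*+ cells. *Gigyf1* (0.62), *Kank1* (-0.18) and *Tfap2c* (0.23) were not called. The rise of *Kit* was set by the sort on its protein, and *Nanos3*, with 0 counts in *c-Kit*- cells, entered the test only through its *c-Kit*+ counts. Neither is therefore a check of the ranking.

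Since the family is named for interferon, the genes of that pathway were followed from ligand to target. Of 11 interferon ligand genes, all were listed at 0 in 9 libraries, and the 2 BV+SC+ libraries had summed levels of 0.36 and 0.39 TPM. Receptor RNA was present in all libraries, with a summed level of the 6 genes between 49.2 TPM in *c-Kit*+ cells and 109 TPM in *c-Kit*- cells. In *c-Kit*+ cells 1 of the 6 receptors tested was called, on the lower side, beside 12.9% of all genes called lower. It was *Il10rb*, a shared chain of the type III interferon and IL-10 receptors, with 39 counts in *c-Kit*- and 5 in *c-Kit*+ cells (edgeR adjusted p = 0.00511). In BV+SC+ cells 5 receptors were tested, with 2 called higher and 1 lower, beside 16.8% and 17.2% of all genes. *Ifngr2* (log2 fold change 2.23, SE 0.35, edgeR adjusted p = 0.00121) and the low *Ifnlr1* were higher. *Ifngr1* was lower (-1.16, SE 0.31, edgeR adjusted p = 0.0142), so the chains of the interferon gamma receptor moved apart. None of the 6 receptors passed the 2-fold limit with DOT1Li.

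Of 9 signalling genes tested in the sorted cells, 1 was called higher and 2 lower, shares close to the 9.98% and 12.9% of all genes. *Socs1*, which encodes an inhibitor of cytokine signalling, was lower, with 57.8 and 44.9 TPM in *c-Kit*- and 18.8 and 9.15 TPM in *c-Kit*+ cells (log2 fold change -1.74, SE 0.36, edgeR adjusted p = 0.00413). *Irf1*, an interferon regulatory factor, stood at 12.5 and 9.95 TPM in *c-Kit*- and 38.3 and 27.2 TPM in *c-Kit*+ cells, and was higher (1.68, SE 0.33, edgeR adjusted p = 0.00312). In BV+SC+ cells *Irf9* (1.74), *Irf1* (1.65) and *Stat2* (1.21) were called higher, and the other 4 of 7 tested were not called. Of all genes, 16.8% were called higher and 17.2% lower there. None of the 11 signalling genes compared passed the limit with DOT1Li.

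Most other interferon targets did not follow *Ifitm1* and *Ifitm3* in *c-Kit*+ cells. Of 41 listed targets 15 were tested, and 3 were called higher and 6 lower, with a median log2 fold change of -0.62 against 0.03 over all genes. The background was 9.98% called higher and 12.9% called lower. *Bst2*, which encodes the tetherin protein that holds virus particles at the cell surface, had 27.5 and 17.1 TPM in *c-Kit*- and 154 and 153 TPM in *c-Kit*+ cells (2.95, SE 0.27, edgeR adjusted p = 4.17e-05). *Ly6e*, a membrane-anchored antiviral gene, was also higher (1.86, SE 0.20, edgeR adjusted p = 9.55e-05). The 6 called lower were *H2-D1* (-2.59), *Ifi35* (-2.29), *Gbp2* (-2.18), *H2-K1* (-2.07), *Tapbp* (-1.37) and *B2m* (-1.29). *H2-D1* and *H2-K1*, class I antigen genes, resemble each other in sequence, so their reads may be divided between them.

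In BV+SC+ cells 20 targets were tested, of which 8 were called higher and 6 lower (background 16.8% and 17.2%), with a median log2 fold change of 0.12 against 0.05 over all genes. Of those called higher, *Trim25*, *Ifi27*, *Ddx58* and *Ifih1* had at most 3 counts in each EpiSC library. They entered the test only through the deeper BV+SC+ libraries, so the count of 8 cannot be weighed against the background. *Trim25*, a ubiquitin ligase of RNA sensing, had no counts in EpiSCs and 48.8 and 77.6 TPM in BV+SC+ cells, and was at least 181-fold higher. *Ddx58*, which encodes the RNA sensor RIG-I, had 3 counts in EpiSCs and was higher by 215-fold (exact 95% interval 73.6 to 1046, counting error only). *Bst2* was again called higher (2.75, SE 0.45, edgeR adjusted p = 0.00142), though its 2 BV+SC+ libraries were far apart at 119 and 341 TPM. The labels name different media for these 2 libraries, 2iJi and GK15, and the part of the medium was not tested. Whether Ji names the JAK inhibitor that the paper added to the second stage of BiPNT is not settled here. *Ly6e* went the other way, from 378 to 419 TPM in EpiSCs to 243 and 156 TPM in BV+SC+ cells (-1.07, SE 0.18, edgeR adjusted p = 0.00162), as did *Tap1* (-2.81).

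With DOT1Li 12 of 27 targets compared were past the 2-fold limit on the higher side and none on the lower (background 6.33% and 3.45%), with a median log2 ratio of 0.87 against 0.01 over all genes. Only 3 of the 12 had a mean level of 5 TPM or more, namely *Bst2* (28.9 TPM without and 89.2 TPM with DOT1Li), *Tapbp* (18.7 and 54.9 TPM) and *Ly6e* (log2 ratio 1.32). *H2-D1* (41.5 and 44.1 TPM) and *H2-K1* (64.2 and 60.9 TPM) were close in the 2 libraries. *Bst2* and the low *Parp14*, a poly(ADP-ribose) polymerase family gene, were thus the listed targets on the same side as *Ifitm1* and *Ifitm3* past the limits of all 3 comparisons.

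**Figure D4:**
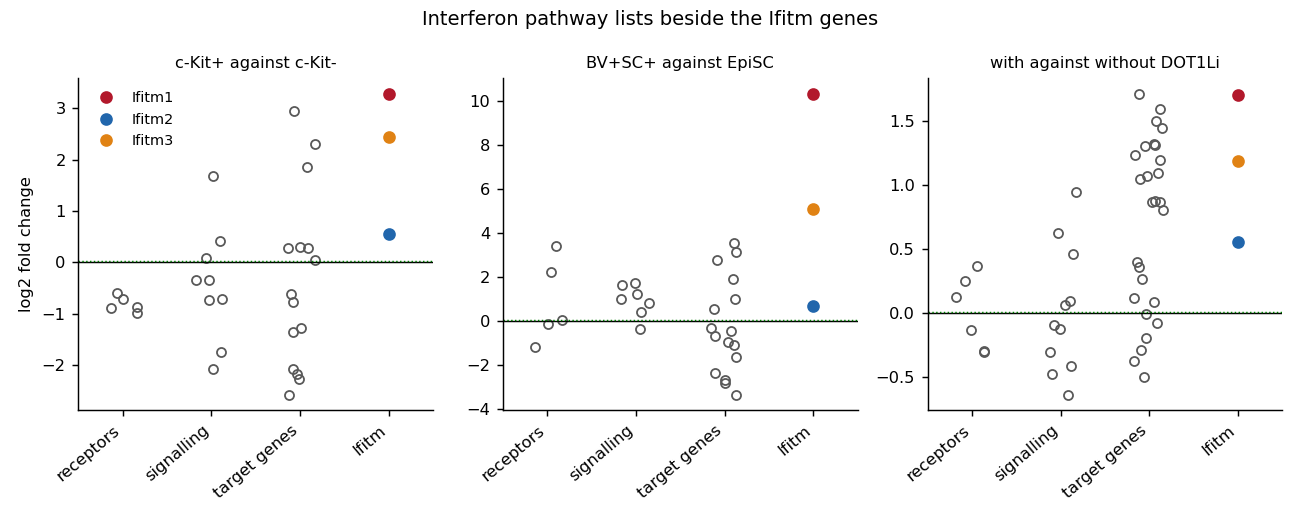
Log2 fold change of the tested interferon receptor, signalling and target genes (open circles) beside *Ifitm1*, *Ifitm2* and *Ifitm3* (filled) in the 3 comparisons. The dotted line is the median of all genes, DOT1Li values are log2 ratios of TPM + 1, and genes whose libraries of 1 group all stayed within the floor of 3 counts are left out, apart from *Ifitm1*. Target genes spread to both sides of 0 in the first 2 panels and mostly above 0 in the third.

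Of 5 genes that act on or with IFITM proteins, 2 were called higher in *c-Kit*+ cells (9.98% of all genes) and 1 in BV+SC+ cells (16.8%). In *c-Kit*+ cells *Nedd4*, the ubiquitin ligase that targets IFITM3, was higher (232 and 256 against 560 and 555 TPM, log2 fold change 1.32, SE 0.08, edgeR adjusted p = 3.87e-06), as was the palmitoyltransferase gene *Zdhhc20* (1.32, SE 0.25, edgeR adjusted p = 0.00271). *Cd81*, *Vapa* and *Zmpste24* were not called. In BV+SC+ cells *Zdhhc20* was higher (1.41, SE 0.22, edgeR adjusted p = 0.00119) and *Nedd4* had a log2 fold change of -0.86, short of the limit. None of the 5 passed the limit with DOT1Li.

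The change of *Ifitm1* and *Ifitm3* was set against 15 genes beside the cluster. Of 11 tested in the sorted cells, *B4galnt4* (1.17), 43.2 kb away, was called higher and *Pkp3* (-3.38) and *Rnh1* (-1.10) lower, beside 9.98% and 12.9% of all genes. *Pkp3*, a plakophilin gene of epithelial junctions 60.3 kb from the cluster, had 128 and 100 TPM in *c-Kit*- and 10.2 and 10.0 TPM in *c-Kit*+ cells. The nearest neighbour, *Pgghg*, 1.3 kb away, had a log2 fold change of 0.80 and was not called. In BV+SC+ cells *Pgghg* (1.87, SE 0.28, edgeR adjusted p = 0.000880), *Rnh1* (1.52), *Ptdss2* (1.10) and *Ano9* were called higher and *Hras* (-1.33) lower, of 11 tested, beside 16.8% and 17.2% of all genes. *Ano9*, 83.3 kb from the cluster, had 1 count in EpiSCs and 4.08 and 6.76 TPM in BV+SC+ cells, a count ratio of 77.9-fold (exact 95% interval 13.9 to 3088, counting error only). *Ano9* entered the test only through its BV+SC+ counts. With DOT1Li 1 of 12, the low *Sigirr* (0.45 and 3.17 TPM), passed the limit on the higher side, where 6.33% of all genes did. The median log2 fold change of the neighbours was 0.06, 0.03 and -0.15 in the 3 comparisons.

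**Figure D5:**
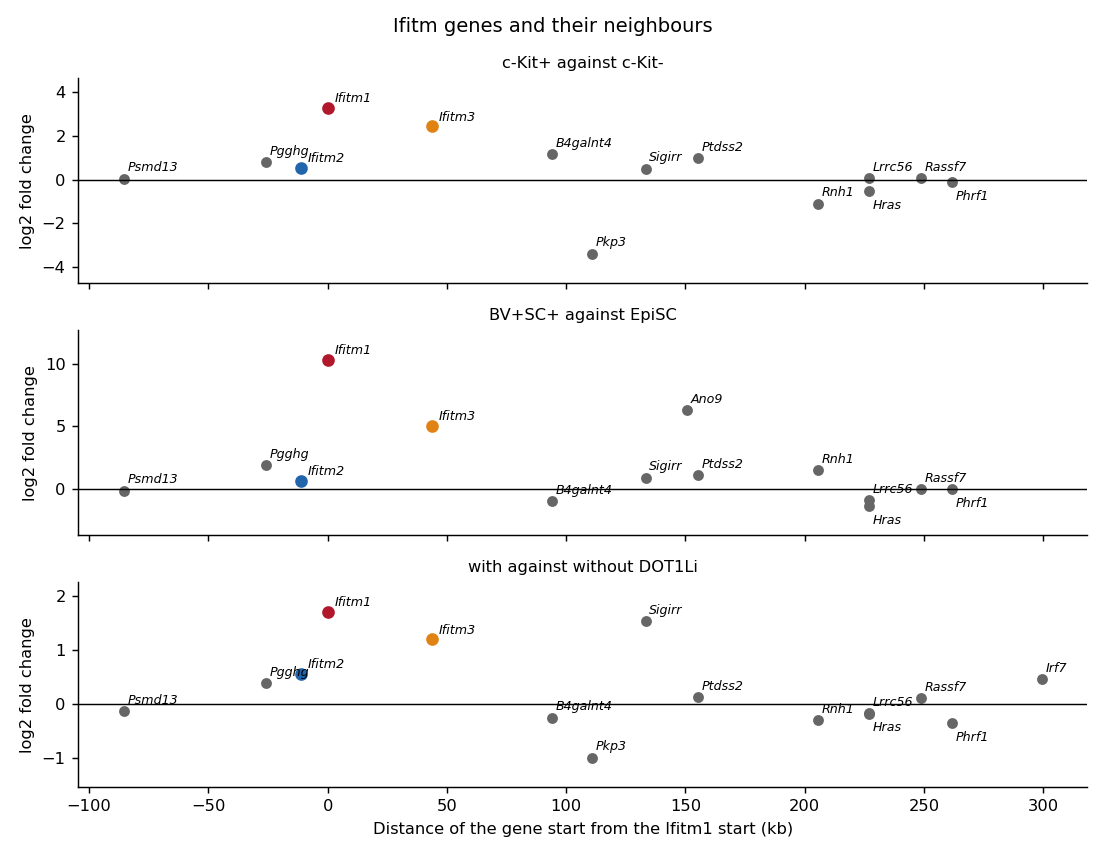
Log2 fold change of the *Ifitm* genes (coloured) and of the tested genes beside them (grey) in the 3 comparisons, plotted at the distance of the gene start from the *Ifitm1* start in kb. DOT1Li values are log2 ratios of TPM + 1, and *Ifitm1* and *Ano9* are ratios of summed counts in the BV+SC+ panel. *Ifitm1* and *Ifitm3* lie above their neighbours in the first panel, and *Ano9* lies above *Ifitm3* in the second and *Sigirr* in the third. *Ifitm2*, placed between *Pgghg* and *Ifitm1* on the chromosome, lies below *Ifitm1* and *Ifitm3* in each panel, within the spread of the grey genes.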

How the data were processed

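The 11 bulk RNA-seq libraries were used, and single-cell, chromatin accessibility and ChIP samples were not used here. The authors aligned reads to a transcriptome with Bowtie2 and deposited expected counts per gene from RSEM 1.3.1, which are not normalized between libraries. The deposited TPM, computed by RSEM from expected count and effective length, and the deposited lengths come from the same files. An mRNA kit is given in the methods, whereas all labels outside the sorted cells give rRNA-depleted total RNA, which can shift levels between experiments. Symbols and coordinates came from GENCODE M21 (GRCm38), which differs from the release in the methods.

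Expected counts were rounded and tested with edgeR 4.0.16 under R 4.3.3 (quasi-likelihood test after filterByExpr and TMM scaling) within each replicated experiment, and p-values were Benjamini-Hochberg adjusted over all genes tested. Genes were called at adjusted p under 0.05 and fold over 2, since the methods give P and fold limits but not whether P was adjusted. Each SE was worked back from the test, as the absolute log2 fold change divided by the square root of its F statistic. The script was tested on simulated data. DESeq2 1.42.0, other factors, filters and thresholds, an effective length offset, a replicate block and leaving out each library were tried as alternatives. Without replicates, the DOT1Li ratio was computed from TPM + 1 over genes above 1 TPM in either library. Intervals of count ratios are exact binomial (Clopper-Pearson) at 95% and cover counting error only. No 2 replicates agreed within sampling noise in a chi-square comparison. The chi-square over its degrees of freedom was 45.3 for the 2 BV+SC+ libraries, which are the deepest, and at most 4.46 for the other pairs.

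All members were described. From each list at most 6 called genes with a mean of at least 5 TPM were named, those with the largest log2 fold change, and a few others were named after their values were seen. The 5 genes most like a member were those with the highest Pearson r among genes with a mean of at least 5 TPM. Some genes of these lists are not reported here. The members and the lists were chosen with earlier results of these data known. Transcript sequence was compared with BLAST+ 2.17.0 and by exact matches of 75 bases.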

Additional observations from a re-analysis of the deposited data

How the results depend on the processing

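*Ifitm1* and *Ifitm3* were called higher, and *Ifitm2* was not called, in both replicated comparisons under RLE factors, DESeq2, no filter, the length offset, the unadjusted P limit and each left-out library. The exceptions were 2. With adjusted p at any fold, *Ifitm2* was also called (log2 fold change 0.55 in *c-Kit*+ and 0.67 in BV+SC+ cells), and genes called rose to 2228 higher and 2346 lower in *c-Kit*+ and to 3486 and 3122 in BV+SC+ cells. With at least 10 counts in every library, *Ifitm1* left the BV+SC+ test, so 1 member was called, and genes called higher were 706 in *c-Kit*+ and 1164 in BV+SC+ cells. Leaving out a library gave log2 fold changes of 3.18 to 3.36 for *Ifitm1*, 0.43 to 0.61 for *Ifitm2* and 2.38 to 2.45 for *Ifitm3* in *c-Kit*+ cells, and of 4.82 to 5.27 for *Ifitm3* in BV+SC+ cells.

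With DOT1Li the ratios of *Ifitm1*, *Ifitm2* and *Ifitm3* kept their side of the limit in the 5 alternatives run, while genes past it were 558 higher and 163 lower from CPM and 374 and 181 with TPM over 1 in both libraries. Of the 5 genes most like *Ifitm1*, 0 remained with a pseudocount of 0.1 and 3 with CPM, and CPM kept 2 for *Ifitm2* and 2 for *Ifitm3*. The cause was not tested.

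No label calls same-numbered libraries pairs. The correlation of their deviations from group means was 0.114 in sorted cells, and -0.0349 and 0.00367 in the second experiment. With 2 libraries in each sorted group both numbers give the same value, so this check cannot decide whether same-numbered fractions came from 1 sort. The replicate block gave 1126 genes higher and 1401 lower in *c-Kit*+ and 1872 and 1958 in BV+SC+ cells, with log2 fold changes of 3.29 and 2.44 for *Ifitm1* and *Ifitm3* in *c-Kit*+ and 5.03 for *Ifitm3* in BV+SC+ cells. It changed no call of a member. With 3 counts as the floor, a gene needed 1.63 to 1.74 CPM to exceed it in a sorted library and 0.166 to 0.203 CPM in a BV+SC+ library, which limits *Ifitm5* and *Ifitm6*.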

Other observations

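*Ifitm7* on chromosome 16 and *Ifitm10*, further along chromosome 7, had low levels in all libraries. The highest level was 2.83 TPM for *Ifitm7*, in an EpiSC library, and 2.95 TPM for *Ifitm10*, in the library with DOT1Li (9 counts). The deep second BV+SC+ library held the most *Ifitm7* counts, 32.3, at 2.63 TPM.

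*Ifitm2* shares the most sequence with other transcripts. Of its 581 stretches of 75 bases, 42.0% also occur in other annotated transcripts, namely *Gm45717*, which overlaps *Ifitm2* and *Ifitm5* on the same strand, and *Gm11951*, *Gm2840*, *Gm45308* and *Gm8865*. The share was 0.582% for *Ifitm1*, 0.662% for *Ifitm3*, 22.6% for *Ifitm5* and 0% for *Ifitm6*. In the sorted libraries these 5 transcripts were listed at 0, apart from *Gm45717* with 4.9 counts in 1 *c-Kit*+ library against 543 for *Ifitm2* there. None of these 5 transcripts is listed in the other 7 libraries, so they could not be compared there. The part of reads from the shared stretches in the *Ifitm2* values of those libraries was not tested. Between members the longest aligned stretches were 83.8% identical for *Ifitm1* and *Ifitm3* (266 bases), 82.9% for *Ifitm2* and *Ifitm3* (363 bases) and 80.7% for *Ifitm1* and *Ifitm2* (300 bases).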
